A study of Mus musculus with 4 samples.

Results

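The regions described here are all those on mouse chromosome 19 at which captured DNA was lower in a tamoxifen library than in an oil library of cultured satellite cells. They were chosen by chromosome alone, and they number 1273 of the 39231 regions in the authors' deposited list. Chromosome 19 was picked because it held more regions per Mb than any other autosome, so its density is given below as a description, with no test. Satellite cells, which repair muscle fibres as their stem cells, came from hindlimb muscles of 9-week-old mice and were grown for 3 days on Matrigel. Mice of the tamoxifen group had been injected intraperitoneally with 150 µl of tamoxifen at 20 mg/ml, in corn oil, on 5 consecutive days, which activates Cre recombinase, and the series names these animals Uhrf1-deficient in satellite cells. Mice of the control group are labelled oil. The labels give them the same 150 µl on 5 days, with no tamoxifen concentration. The driver of Cre, the floxed allele and the genotype of the oil mice are not given in the sources used here, nor is the number of animals behind each library.

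There are 4 libraries, 1 each for methylated and non-methylated DNA of oil and of tamoxifen mice, so no group has a replicate and no test was made. The deposited list names its inputs only as oil and tamoxifen, and they are taken here to be the methylated part. After duplicate removal the oil library had 19534328 tags and the tamoxifen library 25614791. The deletion cannot be told apart from the drug, the animals, the culture or the capture as the source of a difference. The list carries no expression values, so the labelled cell type was not checked against marker genes.

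Methyl-CpG capture uses the binding domain of MBD2, which holds methylated CpG dinucleotides, so that a fragment is recovered only if it has several of them and they are methylated. Uhrf1 binds hemimethylated DNA behind the replication fork and brings in Dnmt1, which copies the methyl marks to the new strand. In mammalian cells most CpG outside CpG islands is methylated, including that inside transcribed genes, whereas the CpG islands at many gene starts are free of it. Chromosome 19 is the smallest mouse autosome and rich in genes.

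Some gene starts on chromosome 19 held one of these regions, and the promoters that did had a middling number of CpG. The share of windows of the same length elsewhere on the chromosome that overlap a region was not computed. The shares below therefore do not say whether starts hold fewer regions than other places. The promoter windows examined were those of RefSeq (GRCm38.p6, the assembly of mm10), from 250 bases before to 50 bases after a start. The table has 1044 of them for this chromosome, for 593 of its 705 protein-coding and 270 of its 339 lncRNA genes. A region overlapped 9 windows, or 0.862% (exact 95% limits 0.395% to 1.63%), against 388 of 30352 (1.28%) on the other 17 autosomes in that table. Of these 9 windows, 7 belonged to lncRNA genes and 2 to the protein-coding genes Kcnk7, a potassium channel subunit, and Ldb1, an adaptor of LIM-domain transcription factors.

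Below are the 250 bases before the start of 4 genes whose promoter held the summit of a region, and, for contrast, of 1 CpG-rich and 1 CpG-free promoter without a region. The latter 2 were picked after the values were seen. Capitals mark CpG, the only motif searched, which reads the same on both strands. Gm35460 (chr19:44614508-44614757, plus strand) has 9 CpG in these bases, Kcnk7 (chr19:5704221-5704470, plus) has 9, 1810018F18Rik (chr19:58698667-58698916, plus) has 8 and Gm52397 (chr19:37985836-37986085, plus) has 12. Tcf7l2 (chr19:55741560-55741809, plus) has 30, and the olfactory receptor gene Olfr1426 (chr19:12091848-12092097, minus) has 0.
Gm35460: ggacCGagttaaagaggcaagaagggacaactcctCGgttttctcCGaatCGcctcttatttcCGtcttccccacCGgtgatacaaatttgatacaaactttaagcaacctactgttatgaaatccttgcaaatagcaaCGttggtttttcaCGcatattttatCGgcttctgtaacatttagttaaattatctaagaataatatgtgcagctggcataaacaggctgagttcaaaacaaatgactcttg
Kcnk7: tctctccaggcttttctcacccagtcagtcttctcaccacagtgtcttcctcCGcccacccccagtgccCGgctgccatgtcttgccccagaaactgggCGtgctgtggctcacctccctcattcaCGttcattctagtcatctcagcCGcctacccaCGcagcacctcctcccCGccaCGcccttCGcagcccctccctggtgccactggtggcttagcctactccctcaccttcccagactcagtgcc
1810018F18Rik: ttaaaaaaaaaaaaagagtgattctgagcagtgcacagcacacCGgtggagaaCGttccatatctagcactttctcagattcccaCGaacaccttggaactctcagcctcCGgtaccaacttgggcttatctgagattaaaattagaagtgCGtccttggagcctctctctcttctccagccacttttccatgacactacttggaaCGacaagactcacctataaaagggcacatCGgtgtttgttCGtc
Gm52397: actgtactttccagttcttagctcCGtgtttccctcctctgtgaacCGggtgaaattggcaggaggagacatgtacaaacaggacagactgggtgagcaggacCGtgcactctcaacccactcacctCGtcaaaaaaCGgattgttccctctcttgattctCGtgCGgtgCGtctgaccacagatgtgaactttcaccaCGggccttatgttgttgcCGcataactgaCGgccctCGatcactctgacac
Tcf7l2: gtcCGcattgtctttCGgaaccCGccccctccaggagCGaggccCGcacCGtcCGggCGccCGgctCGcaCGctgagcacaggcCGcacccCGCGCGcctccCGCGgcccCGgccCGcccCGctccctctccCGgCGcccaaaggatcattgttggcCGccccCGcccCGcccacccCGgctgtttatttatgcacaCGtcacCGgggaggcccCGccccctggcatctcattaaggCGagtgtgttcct
Olfr1426: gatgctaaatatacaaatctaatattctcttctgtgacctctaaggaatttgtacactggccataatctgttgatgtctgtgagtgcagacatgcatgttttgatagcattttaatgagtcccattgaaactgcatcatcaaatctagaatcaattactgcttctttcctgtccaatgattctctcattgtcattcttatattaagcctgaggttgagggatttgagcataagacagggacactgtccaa

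All folds are the authors' values of oil over tamoxifen at a region's summit, computed by their caller after 1 was added to each side, and tags are counts over that summit, unscaled. The Gm35460 promoter, on a lncRNA gene, had 25 tags in the oil and 4 in the tamoxifen library (fold 6.42, exact 95% limits of the scaled tag ratio 2.83 to 32.4). That of Kcnk7 had 48 and 9 tags (fold 6.23, limits 3.39 to 16.2). That of 1810018F18Rik had 80 and 21 tags (fold 4.76) and that of Gm52397 had 50 and 14 (fold 4.37). All 4 limits lay above 1, which follows from the listing, since the same tags had to pass the authors' q limit, and adds no support. Such limits cover counting error only, and the caller's choice of the highest oil point biases folds upward.

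The 9 promoter windows with a region had 4 to 15 CpG. On chromosome 19 none of the 332 windows with 20 or more CpG did, which allows a share of up to 0.904% by the limit of 3 counts (exact 95% upper limit 1.1%). None of the 217 windows with 0 to 2 CpG did either, which allows up to 1.38% by the same limit (exact 1.69%). The highest share, 4 of 92 windows (4.35%, exact limits 1.20% to 10.8%), was found at 10 to 14 CpG. On the other autosomes the shares were 0.172%, 0.243% and 4.29% in these classes, and 3.82% at 6 to 9 CpG, where chromosome 19 had 2 of 119 (1.68%). The median window had 10 CpG on chromosome 19 and 7 on the other autosomes.

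**Figure D1:**
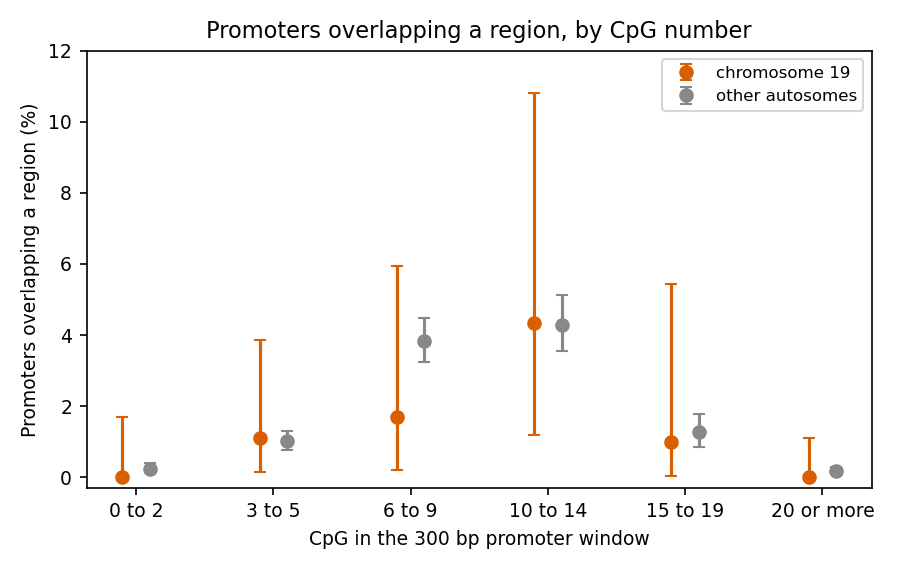
Percent of promoter windows (y axis) that overlapped a region, by the number of CpG in the 300 bp window (x axis), for chromosome 19 (orange) and the other 17 autosomes of the promoter table (grey). Bars are exact 95% binomial limits. Both series are highest at 10 to 14 CpG (4.35% and 4.29%) and lowest at 0 to 2 and at 20 or more.

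Chromosome 19 held 21.86 regions per Mb of its annotated span (58.24 Mb, from position 3064929 to 61305295), ahead of chromosome 17 with 20.76 and chromosome 11 with 20.17. The other autosomes together held 15.7 per Mb. Annotated spans do not start at like positions, with chromosome 17 from 80755 and chromosome 11 from 7221. An earlier start lengthens a span and can lower its density, and the size of this effect was not computed. It also had the largest share of its span inside protein-coding or lncRNA genes, 54.6%, and ranked 3 in protein-coding genes per Mb with 12.11. Per protein-coding gene it had 1.81 regions, which ranked 13 among the 19 autosomes. Per Mb of gene-covered span it had 40.04, behind chromosome 17 with 44.79 and chromosome 5 with 40.34. The rank by density thus held per Mb and not per gene.

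**Figure D2:**
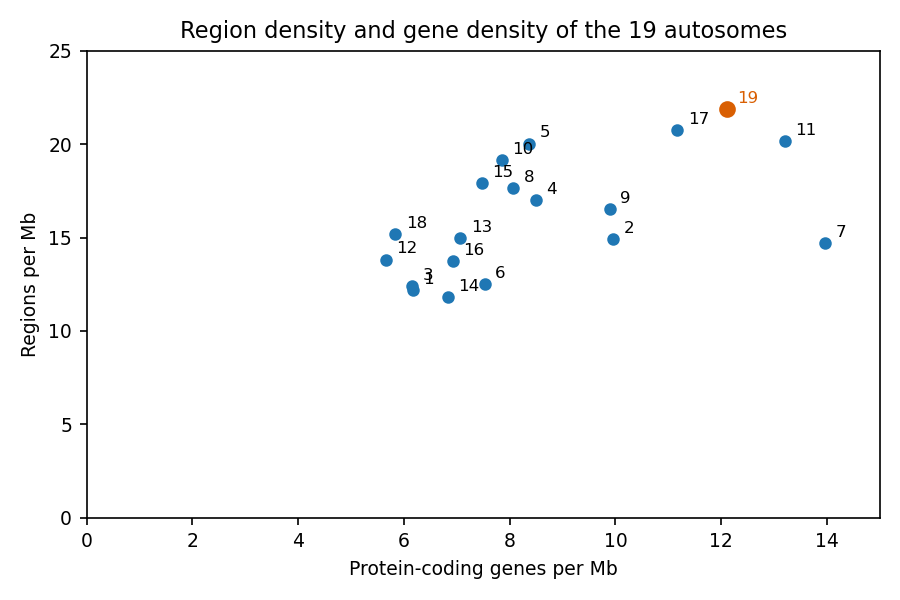
Regions per Mb of annotated span (y axis) against protein-coding genes per Mb (x axis) for the 19 autosomes, 1 point each, chromosome 19 in orange. Chromosome 19 is the highest point, at 21.86 regions and 12.11 genes per Mb.

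The differences at single regions of chromosome 19 were of the same size as elsewhere. The median region had 50 oil and 13 tamoxifen tags over its summit and a fold of 4.66 (quartiles 3.76 and 5.82), against 4.61 (3.67 and 5.87) on the other autosomes. The scaled tamoxifen signal was 19.9% of that in oil at the median region (quartiles 15.3% and 25.4%). A fold of 4 or more was found in 863 regions (67.8%, beside 66.2% on the other autosomes) and one of 10 or more in 25 (1.96%, beside 2.03%). Only 5 regions were under 2-fold. All regions had passed the authors' q limit of 1e-04 and weaker sites are not listed, so these medians describe listed regions and not the chromosome. Regions were up to 1228 bp long, with a median of 261 bp, and covered 378.4 kb in all.

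**Figure D3:**
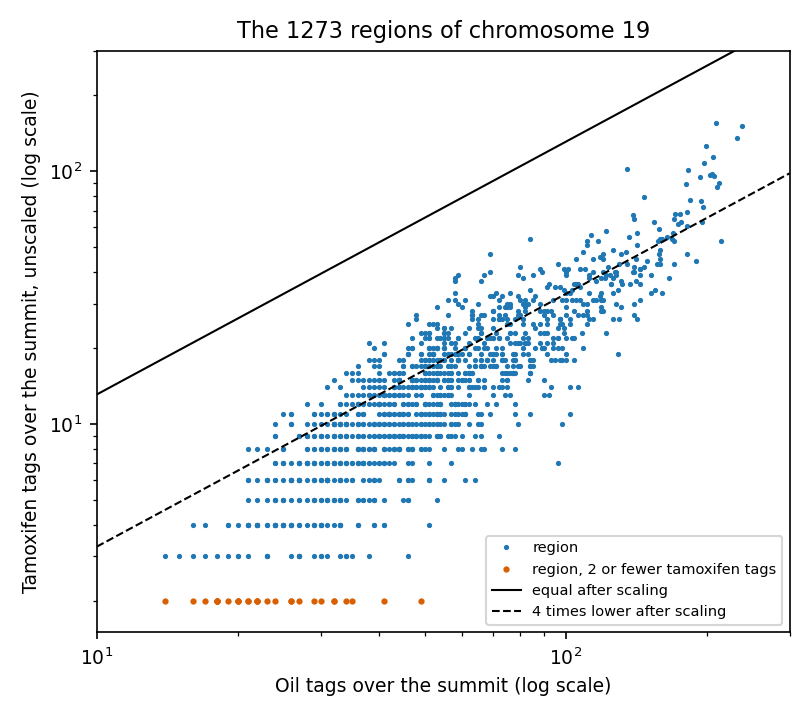
Tamoxifen tags (unscaled, y axis, log scale) against oil tags (x axis, log scale) over the summit of each of the 1273 regions. The solid line marks equal signal after scaling and the dashed line a signal 4 times lower. No region lies above the solid line, and the 29 orange points are regions where the tamoxifen library had 2 or fewer tags.

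The strongest regions lay at gene ends, inside genes of many kinds and, in places, outside genes. The highest fold, 16.13, was between Pprc1, a coactivator related to PGC-1, and Nolc1, a nucleolar phosphoprotein (chr19:46074715-46075174). Here 49 tags in oil met 2 or fewer in tamoxifen, so that its fold was set by the genome mean that the caller uses as its lowest background. It lay within 2000 bp of the far end of Pprc1 and of the start of Nolc1. Another of the strongest lay outside genes (chr19:45228229-45228456), with 46 against 3 tags (fold 14.3, limits 6.46 to 101.06). Dennd10, a gene of endosomal traffic, had 41 tags against 2 or fewer within 2000 bp of its start (fold 13.55, also set by the genome mean).

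Tcf7l2, the transcription factor through which Wnt signals act on their targets, had a region of 51 against 4 tags (fold 12.84, limits 6.14 to 63.7). A region of Atrnl1, an attractin-like membrane protein gene, had 38 and 3 tags (fold 11.86). Ccdc186 had 64 and 6 tags (fold 11.66). In each of these 3 regions the tamoxifen library had 6 or fewer tags. The cleavage factor gene Cpsf7 had 35 tags against 2 or fewer (fold 11.61), and Majin, which tethers telomeres to the nuclear envelope in meiosis, had 98 against 10 (fold 11.48, limits 6.70 to 27.6). Nrap, which encodes an anchoring protein of growing myofibrils, had 53 against 5 (fold 11.22, limits 5.60 to 44.6). The limits of these folds overlap, so their order is not resolved.

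The regions with most oil tags were not those of highest fold. Of the 10 with most oil tags, the first was inside Rcor2, a corepressor gene, with 237 tags in oil and 151 in tamoxifen (fold 2.05, limits 1.67 to 2.54). Inside Abhd17b, which encodes a depalmitoylating enzyme, 231 oil and 135 tamoxifen tags gave a fold of 2.23. The region inside Nrxn2, a neurexin gene, kept far less, at 214 against 53 tags (fold 5.19, limits 3.90 to 7.29). Those in Ccs, Aldh18a1, Mxi1, Cfap43, Sorcs3 and Afap1l2 had folds of 1.75 to 3.13. On the whole chromosome, 8 regions kept 100 or more tamoxifen tags, with a median fold of 2.15 that was 1.64 with unscaled tags. The longest region, 1228 bp at the far end of Fam160b1, had 76 oil and 23 tamoxifen tags (fold 4.15).

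Along the chromosome the regions came in blocks. In 1 Mb windows counted from position 1, the 59 windows held 1 to 60 regions, with a median of 16 (quartiles 8 and 28), and 14 windows (23.7%) together held 50% of all regions. At 40 or more regions were 10 windows (16.9%, beside 7.3% on the other autosomes), and at 5 or fewer were 11 (18.6%, beside 29.5%). No window was empty, while 83 of 2393 windows of the other autosomes were. The annotated span of chromosome 19 starts at position 3064929, while those of several other autosomes start earlier, such as chromosome 17 at 80755. Their first windows are counted in these shares, and how many of them were empty was not computed. The 5 densest windows had nearly the same number of regions over very different numbers of genes. They were 47 to 48 Mb with 60 regions and 18 protein-coding genes, 5 to 6 Mb with 58 and 51, 53 to 54 Mb with 58 and 10, 55 to 56 Mb with 57 and 7, and 57 to 58 Mb with 56 and 4.

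**Figure D4:**
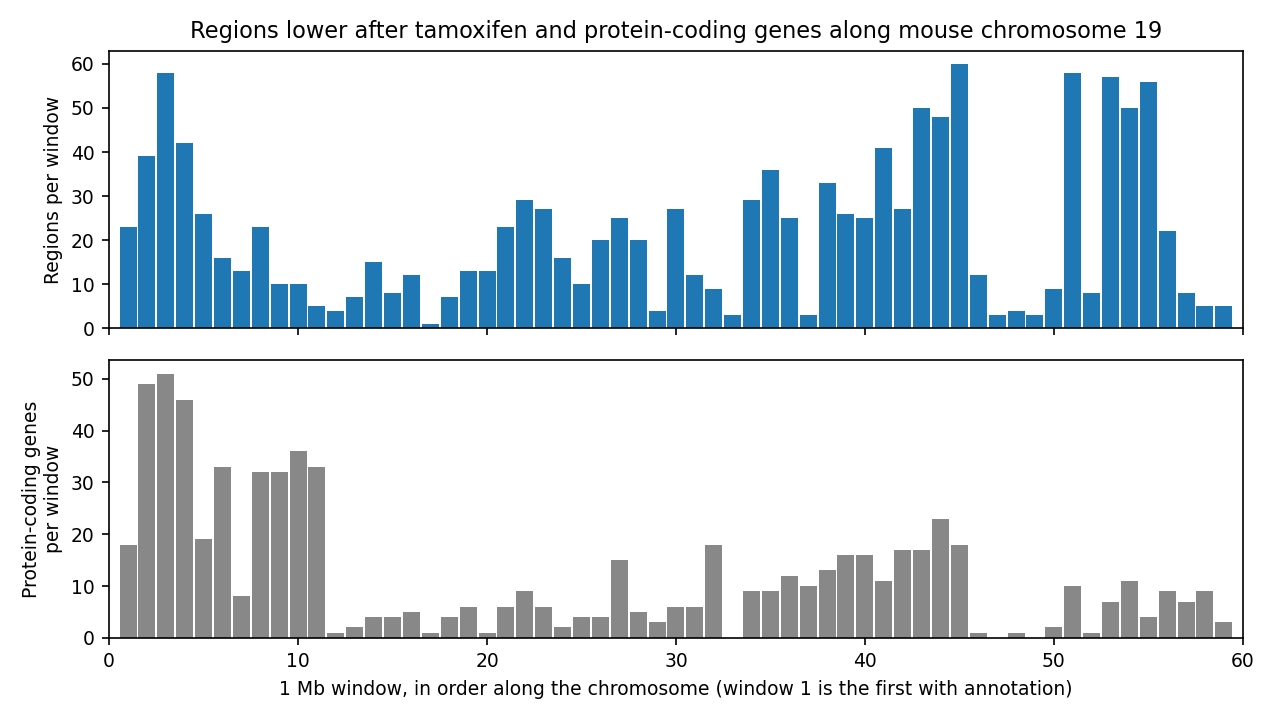
Regions (upper panel, blue) and protein-coding genes (lower panel, grey) per 1 Mb window, in order along chromosome 19. Window 1 runs from 3 to 4 Mb, and the last window is not complete. The highest window holds 60 regions, and the windows of 56 to 58 regions near the right end hold 4 to 10 genes.

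The gene-dense end of the chromosome, from 3 to 8 Mb, had 188 regions over 183 protein-coding genes. The bounds of this and the other blocks named were drawn after the profile was seen. Its densest window, 5 to 6 Mb, held small genes with few regions each. Examples with 3 regions are the splicing factor gene Sf3b2 (highest fold 10.97, 102 oil against 11 tamoxifen tags) and Dpf2, a subunit of BAF remodelling complexes (7.46, 69 against 11). Others are Frmd8 (6.42, 25 against 4), the Rap GTPase activator gene Sipa1 (5.74, 31 against 6) and the kinase gene Map3k11. The strongest region of Map3k11 (6.23, 48 against 9) lay beside the gene and is the same as that of the Kcnk7 promoter. Regions were thus spread over many genes in this window.

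From 53 to 58 Mb, 229 regions (18.0% of the total) lay over 33 protein-coding genes, or 6.94 regions per gene against 1.03 at 3 to 8 Mb. Several genes here held 10 or more regions each. Atrnl1 (522.4 kb) had 23 regions with folds up to 11.86, Tcf7l2 (191.9 kb) had 18 with folds up to 12.84, and Vti1a (311.4 kb), which encodes a SNARE of Golgi and endosome traffic, had 18 with folds up to 10.34. Ablim1 (282.6 kb), which encodes an actin-binding LIM protein, had 16, and Rbm20 (206.1 kb), which regulates the splicing of titin, had 12. Mxi1 (63.2 kb), which encodes an antagonist of Myc, had 11. The densest 100 kb of the chromosome, 53300001 to 53400000, held 13 regions over Mxi1, Smndc1 and a lncRNA gene.

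Within Tcf7l2 the 18 regions had 30 to 155 tags in oil and 4 to 34 in tamoxifen, with a median fold of 5.67 and a lowest of 3.48. In Atrnl1 the 23 regions had 14 to 100 tags in oil and from 2 or fewer to 40 in tamoxifen (median fold 5.33, lowest 3.10). None of the Atrnl1 regions, and 2 of those of Tcf7l2, lay within 2000 bp of a gene end. Both medians lay above that of the chromosome.

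The 45 to 48 Mb block had 158 regions, 52.7 per Mb, the highest value of any block. Sh3pxd2a (204.4 kb), which encodes a scaffold of podosomes, had 14 regions with folds up to 6.67 (26 oil and 4 tamoxifen tags). Stn1, which encodes a subunit of the telomere-capping CST complex, had 9 regions in 44.8 kb. That is 20.1 per 100 kb, next to Fam160b1 with 20.9, the highest among genes with 5 or more regions. Mxi1 had 17.4 by this measure and Entpd7, which encodes a nucleotide-hydrolysing enzyme, had 15.8.

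The longest stretches without a region differed in gene content, from no gene to a cluster of related genes. Neighbouring regions were a median of 17.5 kb apart, against 23 kb on the other autosomes, and 7 gaps of 500 kb or more together took up 4.87 Mb. The longest, 905.2 kb (chr19:35078724-35983955), contained 3 lncRNA genes and no whole protein-coding gene, and reached into the serotonin receptor gene Htr7. A gap of 741.9 kb (18921268 to 19663207) contained Rorb, which encodes a retinoid-related orphan receptor, and was parted from the next gap, of 623.3 kb with 2 lncRNA genes, by a single region. A gap of 616.5 kb (49022499 to 49639008) contained no gene of the table. One of 540.6 kb (51727384 to 52267970) contained the insulin gene Ins1 as its only gene. Gaps say that no site passed the limit, not that DNA there was unmethylated or equal between libraries.

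A stretch that has genes and yet few regions lay near the right end, where a gap of 834.3 kb (59932152 to 60766484) contained the protein-coding genes Fam204a, Prlhr, Cacul1 and Nanos1 and 11 lncRNA genes. Prlhr encodes the prolactin-releasing peptide receptor and Nanos1 an RNA-binding protein of germ cells. The sixth gap, of 604.0 kb (39142953 to 39746940), contained Cyp2c29, Cyp2c39, Cyp2c38, Cyp2c67 and Cyp2c68, genes of drug-metabolising cytochromes P450. At the authors' limit the longest gap was that before Htr7. With a q limit of 1e-06 it became one of 1191.3 kb in and beyond the neuronal sorting receptor gene Sorcs1 (50400865 to 51592163), which weak regions divide in the full list.

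In several clustered gene families a smaller share of genes carried a region than among all protein-coding genes, without matching on gene length. Of the 705 protein-coding genes of chromosome 19, 344 carried a region inside the gene or within 2000 bp (48.8%, beside 47.1% of all autosomal protein-coding genes). Of the 339 lncRNA genes 87 did (25.7%, beside 26.7% on the other autosomes and 26.6% on all). Of 63 olfactory receptor genes only Olfr1431 did (49 oil and 18 tamoxifen tags, fold 3.40). These genes are short, and of all 178 protein-coding genes of the chromosome under 5 kb, most of these 63 included, 29 did (16.3%). Of the 21 Ms4a genes, which encode membrane proteins of blood and other cells, 3 did (Ms4a15, Ms4a19 and Ms4a4c, folds of 3.65 to 4.24). For the Cyp2c genes it was 3 of 15 (Cyp2c66, Cyp2c50 and Cyp2c23), for the lipase genes 1 of 9 (Lipa), for the organic ion transporter genes Slc22a 2 of 10, and for the interferon-induced Ifit genes 0 of 6. Members of such families have similar sequence, so that reads may not be placed uniquely, and the effect of this was not tested. Of the 4 stearoyl-CoA desaturase genes 3 carried a region, namely Scd1 (5.84), Scd3 (5.46) and Scd4 (3.66).

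From 11 to 14 Mb, where the Ms4a and olfactory receptor genes lie, 101 protein-coding genes came with 25 regions, 0.25 per gene. Folds in sparse stretches differed. The median was 3.86 from 11 to 14 Mb and 3.64 from 48 to 53 Mb, around Sorcs3 and Sorcs1, where 31 regions lay over 4 protein-coding genes. From 14 to 23 Mb, with 8.9 regions per Mb, it was 4.79 over 80 regions, above that of the chromosome. Over all 59 windows, regions in windows with 1 to 5 regions had a median fold of 4.0 (40 regions), those in windows with 6 to 20 had 4.48, with 21 to 39 had 4.66, and with 40 or more had 4.84 (520 regions). Their median oil tags, 55, 53, 48 and 50, did not rise with it. The other autosomes gave 4.14, 4.51, 4.69 and 4.71.

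Across the 59 windows the number of regions went with gene content, as a description with no p, since neighbouring windows are not independent and share both libraries. Pearson's r with protein-coding genes was 0.39 (Spearman's rho 0.57), and it was 0.52 (rho 0.69) without the 3 windows from 11 to 14 Mb. On the 18 other autosomes r ranged from 0.21 to 0.68, with a median of 0.52. With the share of the window inside genes r was 0.59 (rho 0.63), and with the number of promoters that have 15 or more CpG it was 0.64 (rho 0.77). Windows at the same gene number held more regions on chromosome 19 than elsewhere in the middle classes. With 5 to 9 genes the median was 22 against 15, with 10 to 19 genes 26 against 22, and with 20 or more 23 against 26. If each window of chromosome 19 had the mean of the other autosomes for its gene number, the chromosome would hold 1049 regions. At their density inside genes, near gene ends and outside genes it would hold 972, and at their plain density 912, compared with 1273 counted. Chromosome 19 was picked for its high density, so a count above these values follows largely from that choice and is no test.

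Most regions lay inside genes. By midpoint, 796 of 1273 (62.5%, exact 95% limits 59.8% to 65.2%) were inside a protein-coding or lncRNA gene and over 2000 bp from any gene end, 184 (14.5%, 12.6% to 16.5%) were within 2000 bp of an end, and 293 (23%, 20.7% to 25.4%) were outside. On the other autosomes the shares were 54.5%, 14.8% and 30.6%. Counted per Mb of each class, chromosome 19 had 28.9 regions inside genes against 20.5 elsewhere, 27.4 near ends against 25.9, and 12.2 outside genes against 9.7. These limits treat regions as independent, though 78 of them lay under 1000 bp from the next. Median folds were 4.71 inside genes, 4.75 near ends and 4.42 outside.

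Inside genes the regions were denser toward the far end. In the 245 protein-coding genes of 20 kb or more with a known strand, the last 10% of the gene length held 105 of 592 regions, 48.3 per Mb, and the first 10% held 50, or 23 per Mb. From 10% to 60% of the length the value stayed between 20.3 and 25.3. The other autosomes had 35.0 per Mb in the last 10% and 16.2 in the first. Among 593 protein-coding genes with a known strand, 87 (14.7%, exact limits 11.9% to 17.8%) had a region within 2000 bp of their far end and 44 (7.42%, 5.44% to 9.83%) within 2000 bp of their start, 16 of them at both. In the other autosomes it was 13.7% and 7.67%. By summit, 28 regions (2.2%) were within 1000 bp of the nearest start in the promoter table and 78 (6.1%) within 2000 bp, with 13 in the first 1000 bp after a start and 31 in the next.

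**Figure D5:**
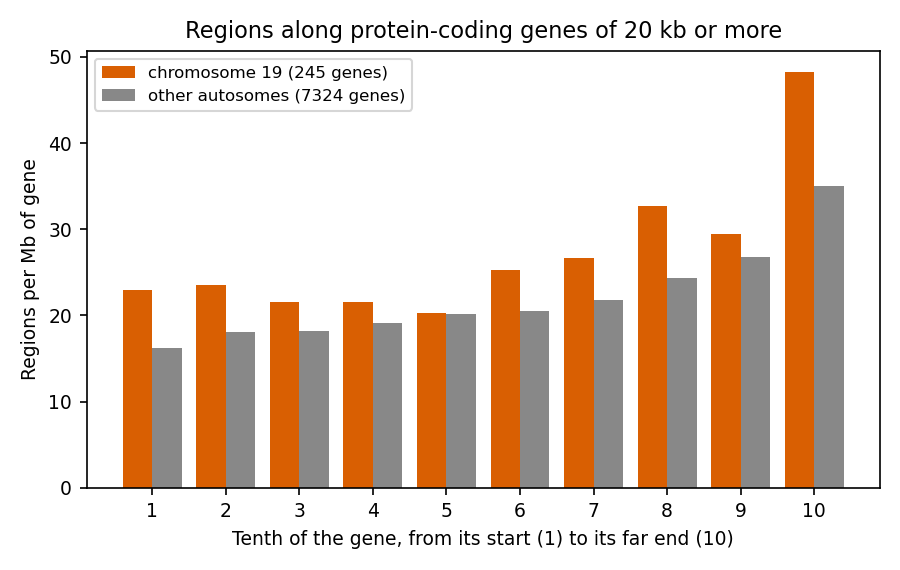
Regions per Mb of gene (y axis) in each 10% of the length of protein-coding genes of 20 kb or more, from start to far end (x axis), for 245 genes of chromosome 19 (orange) and 7324 of the other autosomes (grey). Both series are highest in the last 10% (48.3 and 35.0).

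Longer genes more often carried a region. On chromosome 19, 29 of 178 protein-coding genes under 5 kb did (16.3%) and 62 of 67 genes of 100 kb or more (92.5%). The 5 long genes without one were Rorb, Pgm5, Rfx3, Cyp2c39 and Gbf1. Pgm5 encodes a phosphoglucomutase-like protein of muscle attachment sites, Rfx3 a factor of cilia formation and Gbf1 an exchange factor of the Golgi. Genes of 100 kb or more held 2.54 regions per 100 kb, against 1.59 on the other autosomes, while genes of 5 to 20 kb held 4.69 against 4.14. Sorcs1, at 535.8 kb, held 1 region (113 oil and 56 tamoxifen tags, fold 2.61).

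Genes were next read by role, from lists of 136 chromosome 19 genes, of which 99 carried a region. Their share of 72.8% stands beside the 48.8% of all protein-coding genes of the chromosome. The listed genes were longer, with a median of 27.2 kb against 15.3 kb. Among all protein-coding genes of the chromosome, 42.4% of those of 5 to 20 kb carried a region, 63.3% of 20 to 50 kb and 78.4% of 50 to 100 kb. The highest folds of the listed genes had a median of 6.0, beside 5.72 for all protein-coding genes with a region. Several chromatin genes lie here. Of 17, 16 carried a region (median gene length 45.4 kb), and only Hells, which encodes a remodeller needed for DNA methylation, did not.

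Uhrf2, the paralogue of Uhrf1, had 2 regions, both inside the gene, and the stronger (chr19:30070312-30070560) had 60 against 9 tags (fold 7.76, limits 4.31 to 20.0). The transcriptional corepressor gene Lcor reached 9.01-fold (63 against 8 tags). Smarca2, which encodes the ATPase BRM, had 9 regions and a highest fold of 8.45 (59 against 8 tags). Pcgf5, a Polycomb gene, also had 9, with a highest fold of 6.0. The histone demethylase gene Kdm2a had 1 region of 33 against 7 tags (fold 5.36), and Men1, the menin gene, had 2 near its ends, the stronger at its far end with 33 against 4 tags (fold 8.39). Of the highest folds of these genes, the lowest was 3.31, at the far end of the deubiquitinase gene Otub1 (194 against 76 tags).

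Of 21 genes of muscle structure and function, 16 carried a region (76.2%), 101 regions in all (median gene length 49.4 kb). For all protein-coding genes of the chromosome the share was 63.3% at 20 to 50 kb and 78.4% at 50 to 100 kb. Beside Nrap above, examples were Ablim1 (10.37-fold, 41 against 4 tags), Capn1, which encodes the protease calpain-1 (8.07-fold, 44 against 6 tags, at the far end), and Myof, which encodes the membrane-repair protein myoferlin and had 8 regions (highest fold 7.04, 49 against 8 tags). Pygm, the muscle glycogen phosphorylase gene, had 2 regions inside the gene (highest fold 5.68, 48 against 10 tags). Ankrd1, a titin-binding stretch-response gene, had 2 (5.34-fold, 41 against 9 tags). Actn3, which encodes the alpha-actinin of fast fibres, Ankrd2, Pgm5, the nuclear receptor gene Esrra and the cofilin gene Cfl1 had none. Regions of this list lay mostly inside the gene, with 8 of the 16 genes having one within 2000 bp of an end. Of the 344 protein-coding genes of the chromosome with a region, 138 had one near an end, which is the count to set beside 8 of 16. These 138 are 19.6% of all 705 protein-coding genes. That share also counts genes without a region, so its like is 8 of all 21 listed genes and not 8 of 16.

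Developmental transcription factor genes, which are short (median 12.2 kb), carried a region in 13 of 20 cases. That is 65.0%, beside 42.4% of all protein-coding genes of the chromosome of 5 to 20 kb. Of the 13, 10 had one near an end, beside 138 of all 344 protein-coding genes with a region. This last comparison was not matched on gene length, and in short genes more of the length lies near an end. Tlx1, a homeobox gene, had a region within 2000 bp of its start with 50 against 8 tags (fold 7.18, limits 3.86 to 20.0). Hhex, another homeobox gene, had one within 2000 bp of its start with 84 and 18 tags (fold 5.77). Dmrt3, of the doublesex family, had one at its start (42 against 9 tags, fold 5.47). The corepressor gene Tle4 had 106 against 14 tags inside the gene (fold 9.16, limits 5.66 to 18.8), and Glis3 had 10 regions with a highest fold of 8.43. Pax2, Lbx1, which marks migrating muscle precursors in the embryo, Nkx2-3, Emx2, Dmrt2, Rorb and Rfx3 had none. The region of Pitx3 (53 against 22 tags, fold 3.04) is the same as that of its neighbour Elovl3 and was not past a q limit of 1e-10.

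Of 13 genes of Wnt, Hedgehog and Fgf signalling (median gene length 82.3 kb), 10 carried a region. That is 76.9%, beside 78.4% of all protein-coding genes of the chromosome of 50 to 100 kb. Besides Tcf7l2 and Tle4, Sufu, an inhibitor of Hedgehog signalling, had 3 (highest fold 9.58, 67 against 8 tags), Btrc, the ubiquitin ligase subunit that marks beta-catenin, had 6 (7.14, 66 against 11 tags) and the Wnt coreceptor gene Lrp5 had 3 (6.87, 74 against 13 tags, at a gene end). Fgf8, Sfrp5 and Frat1 had none. The region of Lzts2 (47 against 22 tags, fold 2.70) was past neither a q limit of 1e-10 nor the authors' limit with unscaled tags.

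Cell cycle, replication and survival genes (median length 27.2 kb) carried a region in 16 of 23 cases. That is 69.6%, beside 63.3% of all protein-coding genes of the chromosome of 20 to 50 kb. Kif11, the mitotic kinesin gene, had 4 (highest fold 7.38, 57 against 9 tags), Incenp, a subunit of the chromosomal passenger complex, had 2 (5.88, 144 against 31 tags) and Pola2, a subunit of DNA polymerase alpha, had 2 (6.29, 130 against 26 tags). Fen1, Mus81, Cdca5, Poll, Rnaseh2c, Fas and Bad had none, and the region of Kif20b (19 against 4 tags, fold 4.94) was not past a q limit of 1e-10. Of 4 germline genes (median length 23.9 kb, in the same length class) 3 carried a region, and Nanos1 did not. The 3 were Dmrt1 (5.74-fold), Insl6 (6.36-fold) and the piRNA pathway gene Tdrd1 (4.70-fold, 61 against 16 tags).

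Markers of cells that a muscle culture can hold besides satellite cells were counted too. Of 14 immune and blood cell genes 10 carried a region, all of them inside the gene, such as Blnk (9.43-fold, 30 against 3 tags), Dock8 (8.20-fold, 51 against 7) and the PD-L1 gene Cd274 (5.33-fold, 45 against 10). Ms4a1, Ms4a4b, Ms4a7 and Dntt had none. The median length of these 14 genes was between 20 and 50 kb. Of all protein-coding genes of the chromosome in that length class, 63.3% carried a region. Of 15 adipose, fibroblast and vessel genes (median length 15.2 kb) 9 carried one. That is 60.0%, beside 42.4% of all protein-coding genes of the chromosome of 5 to 20 kb. Examples were Loxl4 (6.10-fold), Scd1 (5.84-fold) and Acta2, the smooth muscle actin gene (5.13-fold, 55 against 13 tags, at its far end). Scd2, Adrb1, Rbp4, Anxa1, Fads1 and Fads3 had none. Of 14 neural and glial genes, which are long (median 118.1 kb), 12 carried one (85.7%), and Slc18a2 and Slc1a1 had none. Among all protein-coding genes of the chromosome of 100 kb or more, 92.5% carried one. A region says nothing of how many such cells either culture held, and the share of other cells was not tested. Of the nuclear lncRNA genes Neat1 had 1 region (66 against 8 tags, fold 9.44) and Malat1 none. The 37 miRNA hairpins of the chromosome overlapped no region, and 7 had one within 2000 bp.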

How the data were processed

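Per the labels' protocols, an MBD2 capture kit separated methylated from non-methylated sheared DNA, and fragments of 250 to 350 bp were selected for the libraries. The submitters' processing notes list Trim Galore, HISAT2, MACS2 2.2.6 and mm10. The deposited regions were called, per the file headers, with MACS 2.2.6, with oil as treatment and tamoxifen as control, with at most 1 tag per position and strand, no regional background, the larger library scaled to the smaller, and a q limit of 1e-04. The name under which the list was deposited puts tamoxifen before oil, against this command line. Directions here follow the command line, and every fold rests on that choice. The deposited pileup is a signal, the oil tags over the summit. The deposited fold is a ratio, with 1 added to each side. The headings of 2 columns were lost, and they were read, from their place and the limit, as the -log10 p and -log10 q of the authors' caller, which compare 2 libraries and not 2 conditions.

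Tamoxifen tags were derived here from each pileup and its fold with the library factor of 0.763, and came out whole within 0.02 tags in 1244 of 1273 regions. The other 29 stood at the genome mean, 2.10 scaled tags, which means 2 or fewer tags. From these tags the deposited -log10 p values were recovered within 0.00011. Limits on tag ratios and shares are exact (Clopper-Pearson) 95% limits and cover counting error only. Genes, starts and sequences are from RefSeq tables of GRCm38.p6. Strand comes from the promoter table, and exons were not used here. A region belongs to a gene if it overlaps the gene or 2000 bp beside it. Windows and places use the midpoint, distances to starts the summit. Genes named are list members, the 10 with the highest fold, the 8 with most regions, the 5 with most per 100 kb, leading genes of the densest windows, genes in gaps of 500 kb or more, and those at the regions with most oil tags or greatest length. Others were named after their values were seen. Some genes that these rules select are not reported here. The members and lists were chosen with earlier results of these data known. Steps were tested on simulated data. Python 3.11.15 with scipy 1.17.1 was used.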

Additional observations from a re-analysis of the deposited data

How the results depend on the processing

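With 1 library per group no spread between animals is known, and no paired analysis was possible because no group has a second sample. Of 73 alternative values for 13 results, 63 stayed within 1.5 times (counts, densities, folds), within 0.1 (correlations), within their exact limits (shares) or at the same rank, and 10 did not. The rank of chromosome 19 by density, 1 at q limits of 1e-06 and 1e-10, with unscaled tags, with joined regions and for folds of 4 or more, became 13 per protein-coding gene and, in an alternative added after the data were seen, 3 per Mb of gene. Empty windows went from 0 to 2 with windows of 0.5 Mb. The correlation of regions with protein-coding genes, 0.39, became 0.59 with the share of the window inside genes and 0.52 without the Ms4a and olfactory receptor windows (added after the data were seen). With 5000 bp around gene ends the shares near ends, inside and outside became 31.3%, 49.6% and 19.1%, since the class itself is wider. With protein-coding genes only they were 10.4% near ends and 28.8% outside. The count per protein-coding gene has another unit and is given only as a rank. Unscaled tags left 1219 regions and a median fold of 3.70. Sites with few oil tags could not pass the limit, and the lowest listed had 14.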
